A study of Mus musculus with 8 samples.

Results

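The 10 genes described here encode the lysosomal proteases of the cathepsin family and legumain: Ctsa, Ctsb, Ctsc, Ctsd, Ctsh, Ctsk, Ctsl, Ctss, Ctsz and Lgmn. They were chosen by symbol, and every row of the deposited table whose nearest-promoter gene is one of them was taken, which gave 232 of 129304 regions, for 10 of 18707 genes. H3K27ac, the acetyl mark that histone H3 carries on lysine 27 where promoters and enhancers are active, was measured by ChIP-seq, the sequencing of chromatin pulled down with an antibody. Wild-type (WT) C57BL/6 mice were compared with C57BL/6 mice of the genotype GrnKO, which lack Grn, the gene of progranulin. The labels do not name the allele. All mice were 2 years old and untreated as far as the labels say, and each genotype had 2 replicates. A replicate was a pool of microglial nuclei from 2 mice, sorted from frozen hemibrain as DAPI-positive singlets that stained for the myeloid factor PU.1 but neither for OLIG2 nor for NEUN. Each pool also gave an input library, which is sheared chromatin without immunoprecipitation, so that 8 libraries were used.

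Cathepsins and legumain are made as inactive precursors, carried to the lysosome and activated there by cleavage, often by one another. Most are cysteine proteases, Ctsd is an aspartic protease and Ctsa a serine carboxypeptidase. In microglia they degrade engulfed material and process antigens. Progranulin itself is delivered to lysosomes and cut there into granulins by enzymes of this family.

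Values are normalised tags: sequenced fragments per 800-bp region, scaled to 10000000 tags per library and then by TMM, a factor that sets the bulk of regions level between libraries. The H3K27ac libraries held 15491642.5 to 20030832 tags and the inputs 4078179 to 14415969. WT replicate 1 stood apart: 49.4% of its tags lay in the listed regions, against 63.3% to 65.7% in the other 3 H3K27ac libraries. For the family, main results are therefore also given without it, while the other gene lists are given with every library. Wherever 1 library is left out, its genotype holds 1 library that is assumed to vary like the other genotype, whose 2 pools then give all the spread between libraries (moderated by limma over all features). Without a GrnKO library that spread is the WT one, with WT replicate 1 in it, and without a WT library it is the GrnKO one, so calls lost or kept there also follow which pair gives the spread. TMM moved the median change over all tested regions from 0.22 in the authors' scaling to -0.0020 (log2), and the split of calls from 6583 higher and 333 lower to 5488 higher and 2355 lower. Of 10 Grn regions, 6 were lower in GrnKO and 4 of these held 0 tags in both GrnKO libraries, while 1, in intron 7, was higher, so that the libraries matched their labels. All 10 microglial marker genes carried the mark, at a summed 54524 and 59143 normalised tags in WT and 44856 and 47334 in GrnKO, and Csf1r, Cx3cr1, Sall1, Siglech and Tmem119 were among those lower in GrnKO. Summed tags of the other marker lists were far smaller, from 41.5 and 34.6 in WT and 41.9 and 35.3 in GrnKO for neutrophils to 2004 and 2094 in WT and 2538 and 2684 in GrnKO for oligodendrocytes, where Mbp gave most of the sum and was higher, Mog was lower (177 and 170 tags in WT, 69.9 and 69.7 in GrnKO) and Olig2 held 16.1 or fewer. Within the neutrophil list S100a8 was higher (0 and 5.24 tags in WT, 20.4 and 18.7 in GrnKO, limma adjusted p = 0.048), while Ngp and Retnlg had both GrnKO values below both WT values and did not pass (limma adjusted p = 0.31 and 0.40). B and T cell markers summed to 261 and 219 in WT and 655 and 484 in GrnKO. Nearly all of that was the B cell marker Ms4a1, which was higher (219 and 197 tags against 609 and 463, log2 change 1.35, SE 0.17, limma adjusted p = 0.00017), and Cd3e held 5.24 or fewer. The endothelial markers went from a sum of 1205 and 1247 in WT to 1733 and 1878 in GrnKO. Flt1 gave most of that rise and passed the threshold (495 and 425 tags in WT, 877 and 896 in GrnKO). Kdr did not pass (689 and 799 against 832 and 958, limma adjusted p = 0.19). Cldn5 was nearly level (21.1 and 22.3 against 22.9 and 24.2, limma adjusted p = 0.91). Ccr2, of the border macrophage and monocyte list, and Syt1, of the neuron list, were lower (limma adjusted p = 0.043 and 0.021). The part of these shifts in the results below was not tested.

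Upstream sequence gives a first view of the family, because lysosomal genes often carry the CLEAR element, an E-box variant bound by the factors Tfeb and Tfe3. RefSeq promoters (GRCm38.p6, the assembly that mm10 denotes) were found for 8 of the 10 genes, in 10 windows of 250 bases before a start site. Ctsb and Ctsh had none. The 4 windows below were chosen with the changes known, so they do not compare motifs with changes. Ctsd had higher H3K27ac in GrnKO, and Ctsz lay close to the threshold. Ctss and Ctsc had the lowest changes of the family's sums. The windows lie at chr7:142387828-142388077 (minus strand, Ctsd), chr2:174439040-174439289 (minus strand, Ctsz), chr3:95526536-95526785 (plus strand, Ctss) and chr7:88277835-88278084 (plus strand, Ctsc), each inside a listed region. Capitals mark matches to the motifs searched on both strands, and each line runs 5′ to 3′ towards the gene.
Ctsd: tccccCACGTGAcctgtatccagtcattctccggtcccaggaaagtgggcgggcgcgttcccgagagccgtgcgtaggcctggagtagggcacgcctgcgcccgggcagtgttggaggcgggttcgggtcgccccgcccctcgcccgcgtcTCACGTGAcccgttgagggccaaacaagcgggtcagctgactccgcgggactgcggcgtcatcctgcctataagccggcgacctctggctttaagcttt
Ctsz: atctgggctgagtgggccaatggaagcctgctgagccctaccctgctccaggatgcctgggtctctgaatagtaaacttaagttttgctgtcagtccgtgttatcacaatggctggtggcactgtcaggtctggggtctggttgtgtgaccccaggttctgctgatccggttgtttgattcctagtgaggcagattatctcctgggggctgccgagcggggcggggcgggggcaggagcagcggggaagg
Ctss: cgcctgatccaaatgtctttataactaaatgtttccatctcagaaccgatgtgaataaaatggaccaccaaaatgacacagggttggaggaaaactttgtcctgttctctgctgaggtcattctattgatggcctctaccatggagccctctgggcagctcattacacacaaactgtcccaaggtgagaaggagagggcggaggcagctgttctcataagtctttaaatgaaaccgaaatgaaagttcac
Ctsc: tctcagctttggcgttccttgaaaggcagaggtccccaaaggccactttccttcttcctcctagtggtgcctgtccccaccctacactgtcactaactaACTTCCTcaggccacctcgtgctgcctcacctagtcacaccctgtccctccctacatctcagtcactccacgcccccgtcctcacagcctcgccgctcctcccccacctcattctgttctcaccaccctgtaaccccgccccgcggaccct

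The motifs were CACGTG (E-box), TCACGTG (core of the CLEAR element, which contains the E-box), TCATGTG (M-box of Mitf), AGGAAGT (ETS motif of PU.1) and TGANTCA (AP-1). Ctsd held 2 E-boxes, and both were CLEAR cores. Of the other windows, CLEAR cores were found at the second annotated start of Ctsa and of Lgmn, neither of which lay in a listed region, and Ctsl held an E-box without the core. Ctsc held 1 ETS motif, and the windows of Ctsz, Ctss, Ctsk, the first start of Ctsa and the first start of Lgmn held none of the 5. The window at the first start of Ctsa, whose sum had the highest change of the family, lies inside a listed region. Among all 32851 windows of that length, 6.02% held CACGTG, 3.13% TCACGTG, 3.25% TCATGTG, 7.69% AGGAAGT and 6.75% TGANTCA. A match is a run of letters and not evidence of binding.

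Summed over all regions of a gene, H3K27ac was higher in GrnKO at 3 of the 10 genes, Ctsa, Ctsb and Ctsd, and lower at none (limma on log2(tags + 1), Benjamini-Hochberg adjustment over 15380 genes at 0.05). Among all gene sums 8.6% were higher and 5.88% lower, 14.5% in all. That is 1322 higher and 904 lower, against 1629 and 166 under the authors' scaling, where 2 of the family, Ctsa and Ctsb, passed. No gene of the family was lower with edgeR or DESeq2 either, and none was lower at an unadjusted p under 0.05. Both GrnKO libraries exceeded both WT libraries at 7 of the 10 genes, against 25.4% of all genes. The median log2 change of the 10 sums was 0.19, beside -0.046 over all genes. In pooled nuclei, fewer nuclei carrying the mark and less mark per nucleus cannot be told apart. Where separate mice share a pool, the p-values measure the spread between pools.

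**Figure D1:**
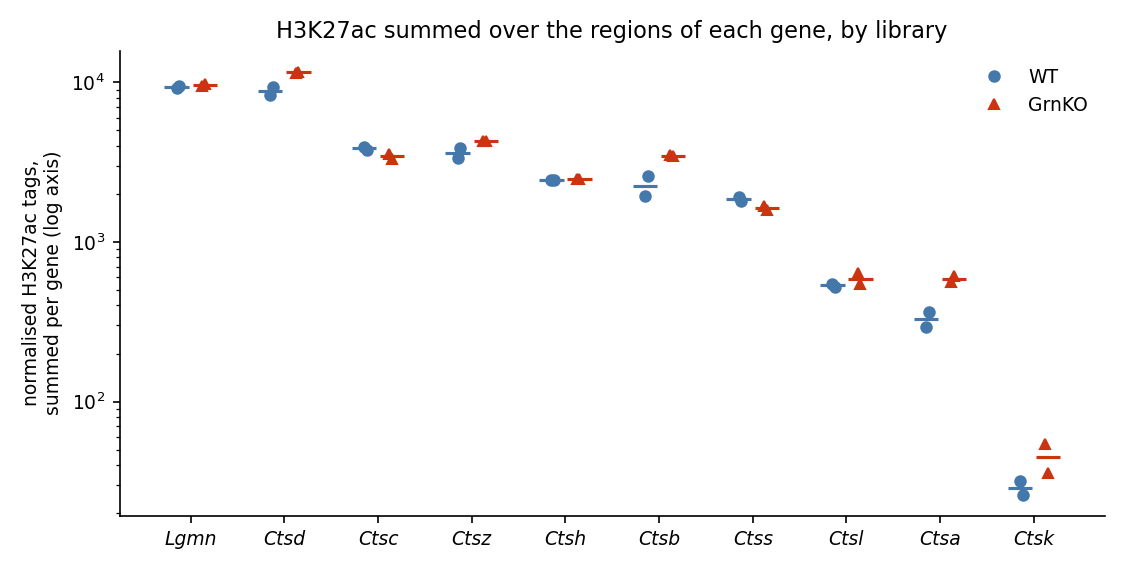
H3K27ac summed per gene (normalised tags, log axis) in each library, with WT as circles, GrnKO as triangles and group means (n = 2) as lines. GrnKO lies above WT at Ctsa (558 and 609 against 293 and 363), Ctsb and Ctsd, and the 2 genotypes overlap at Ctsl.

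A gene's sum follows how many regions it was given, from 3 at Ctsa and Ctsk to 68 at Ctsc, so levels between genes were compared per region of 800 bp. Ctsz and Ctsd, with WT levels of 337 and 387 and of 320.0 and 361 normalised tags per region, had overlapping ranges at the top. Ctss followed at 257 and 273. Lgmn (153 and 157) and Ctsb (128 and 172) overlapped, while Ctsa (97.8 and 121) and Ctsh (97.6 and 97.7) were nearly level. Ctsc (55.6 and 57.6), Ctsl (34.7 and 36.4) and Ctsk (8.73 and 10.6) came last by this mean. The mean still follows which regions a gene was given, as weak regions lower it. By best marked region (mean of the 4 H3K27ac libraries) the order differed, with Ctsd at 956 tags, Lgmn 837, Ctsz 667, Ctss 457 and Ctsc 400. Ctsh (365), Ctsb (350), Ctsa (199), Ctsl (161) and Ctsk (24.2) followed. Over tested family regions the median H3K27ac value was 44.6 and 31.0 times that of the matched input in the WT pools, and 38.6 and 61.2 times in the GrnKO pools, with 1 tag added to each. Over all tested regions the WT medians were 23.9 and 17.8, and the GrnKO medians 14.8 and 28.2. Many regions held 0 input tags, so the ratios depend on the tag added: with 5 in its place the family medians fell to 10.6 and 9.25 for the WT pools and to 15.8 and 16.6 for the GrnKO pools.

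Ctsd encodes cathepsin D, the main aspartic protease of the lysosome. Its 26 regions summed to 8321 and 9381 normalised tags in WT and to 11433 and 11608 in GrnKO. Both GrnKO pools were above both WT pools, and the GrnKO pools differed from each other by less than the WT pools did. The log2 change was 0.38 (SE 0.067, limma adjusted p = 0.0018), and 0.30 without WT replicate 1, still past the threshold. The authors' scaling alone gave 0.61, which did not pass (limma adjusted p = 0.23).

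Along the Ctsd locus on chromosome 7, 13 of 26 regions were higher and none lower, where 6.8% and 2.92% of all regions were. All 11 regions in the gene body were higher, beside 7.42% of gene body regions of all genes. Of these, 6 do not overlap one another, all 6 higher. Upstream, 2 of 14 intergenic regions were higher, beside 8.79% of such regions of all genes. That upstream count was 1 in the authors' scaling, and it rose or fell with the library left out. Without WT replicate 1 or 2, 10 of the 11 gene body regions passed, in the authors' scaling 8 did, and without GrnKO replicate 1 or 2, 4 did. Over the whole locus the count of 13 became 4 without either GrnKO library and 20 without WT replicate 2.

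The strongest change of the family by p lay in intron 2 of Ctsd, at chr7:142383298-142384098, 4172 bp from the start. It held 141 and 132 tags in WT and 396 and 377 in GrnKO (log2 change 1.50, SE 0.16, limma adjusted p = 1.42e-05). The groups were far apart beside their replicate spread. The neighbouring region in intron 3, chr7:142382361-142383161, went from 93.9 and 89.6 to 245 and 312 (log2 change 1.58, SE 0.19, limma adjusted p = 4.02e-05). A region in intron 4, chr7:142381822-142382622, went from 91.9 and 86.4 to 207 and 212 (1.22, SE 0.19, limma adjusted p = 0.00043).

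By contrast, the best marked region of the locus, chr7:142398580-142399380 at -11110 bp, held 836 and 905 tags in WT and 1000.2 and 1084 in GrnKO and did not pass (log2 change 0.26, SE 0.097, limma adjusted p = 0.11). The promoter region, which contains the sequence with the 2 CLEAR cores, held 203 and 271 tags in WT and 316 and 314 in GrnKO (log2 change 0.42, SE 0.16, limma adjusted p = 0.11), and its change was 0.22 without WT replicate 1 (limma adjusted p = 0.36). In both, the GrnKO pools lay above the WT pools. Summed over the gene body, Ctsd held 2147 and 2319.9 tags in WT and 3739.6 and 3835 in GrnKO, and over the upstream regions 5971 and 6789.5 against 7377 and 7459.

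**Figure D2:**
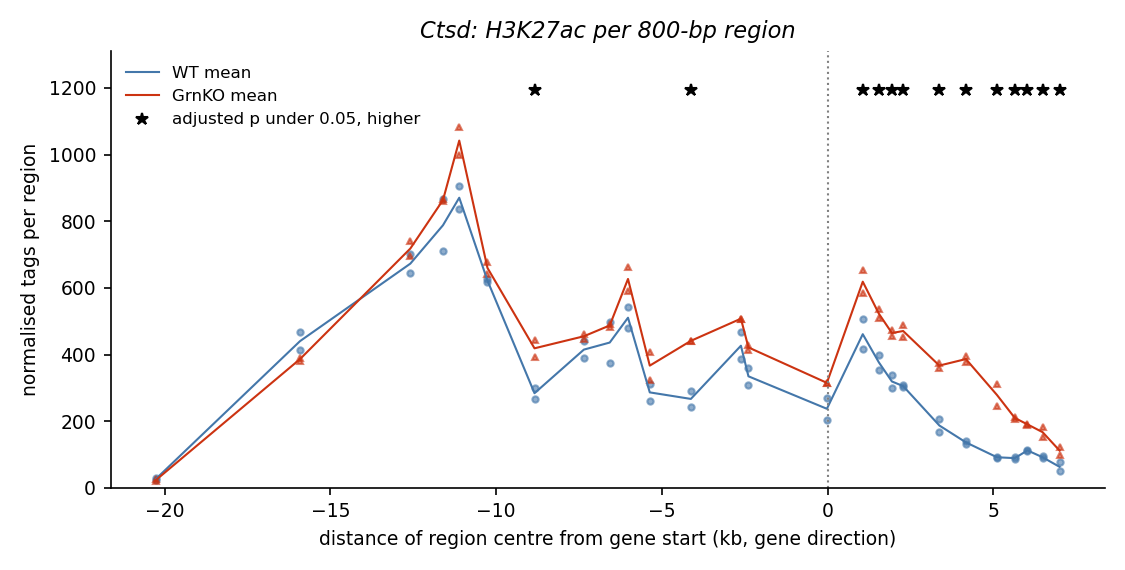
H3K27ac of the 26 Ctsd regions (normalised tags) against the distance of the region centre from the gene start in kb, with circles for the WT libraries, triangles for the GrnKO libraries, lines through the group means (n = 2) and stars for regions higher at a limma adjusted p under 0.05. All 11 regions inside the gene carry a star, and 2 of the 14 upstream do.

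Ctsb encodes cathepsin B, a cysteine protease with both endopeptidase and carboxypeptidase activity. Its 15 regions summed to 1926 and 2585 tags in WT and 3492 and 3454 in GrnKO. Both GrnKO pools were above both WT pools, and WT replicate 1 was the lowest. The log2 change was 0.64 (SE 0.11, limma adjusted p = 0.0021). Without WT replicate 1 it was 0.43 and passed the threshold.

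Ctsb had 7 regions higher of 15 tested, beside 6.8% of all regions, and both GrnKO values exceeded both WT values at 14, beside 27% of all regions. The 7 run from the promoter through intron 1 and stop 10113 bp from the start. The most changed lies at chr14:63130462-63131262, in intron 1, with 107 and 129.9 tags in WT and 292 and 317 in GrnKO (log2 change 1.36, SE 0.17, limma adjusted p = 7.89e-05). At chr14:63132175-63132975, also in intron 1, values went from 96.2 and 82.2 to 233 and 188 (1.22, SE 0.20, limma adjusted p = 0.00068). At chr14:63124049-63124849 they went from 77.0 and 122 to 204 and 195 (1.03, SE 0.22, limma adjusted p = 0.0051).

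The best marked Ctsb region, chr14:63128133-63128933, varied most between the WT pools, at 187 and 329 tags, against 442 in each GrnKO pool (log2 change 0.83, SE 0.19, limma adjusted p = 0.0094). Its change was 0.43 without WT replicate 1 (limma adjusted p = 0.018), and it did not pass without GrnKO replicate 1 (limma adjusted p = 0.099) or 2 (0.086). The count of 7 Ctsb regions became 1 and 2 in those settings, and 11 without WT replicate 2. Promoter regions, defined as those within 1000 bp of the start, summed to 406 and 533 tags in WT and 678 and 697 in GrnKO, and passed as a sum (log2 change 0.56, SE 0.14, limma adjusted p = 0.028, where 3.58% of promoter sums were higher). The 4 upstream regions, annotated as intergenic, did not pass, although all GrnKO values there exceeded the WT values. All 4 overlap the gene Gm36025, and 1 other region assigned to Ctsb lies in the neighbouring gene Fdft1.

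Ctsa encodes the protective carboxypeptidase that stabilises beta-galactosidase and neuraminidase in the lysosome. Its 3 regions summed to 293 and 363 tags in WT and 558 and 609 in GrnKO, with no overlap. The log2 change of 0.84 was the highest of the 10 sums (SE 0.15, limma adjusted p = 0.0021), and it was 0.68 without WT replicate 1, past the threshold. The region in intron 5, chr2:164834624-164835424, held 41.5 and 63.6 tags in WT and 139.7 and 146 in GrnKO (1.46, SE 0.25, limma adjusted p = 0.0010). The region in intron 3, chr2:164834268-164835068, which overlaps it, held 145 and 147 against 243 and 262 (0.78, SE 0.17, limma adjusted p = 0.0056), and did not pass without GrnKO replicate 1 or 2 (0.11 and 0.16). The region at the first start, with 107 and 152 tags in WT and 175 and 200.5 in GrnKO, did not pass (0.55, SE 0.20, limma adjusted p = 0.094). That start lies inside Neurl2, a gene transcribed from the other strand, and tags there cannot be assigned to one of them.

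Ctsz encodes cathepsin Z, a carboxypeptidase. Its 10 regions summed to 3372 and 3873 tags in WT and 4308 and 4289 in GrnKO, again without overlap. The log2 change was 0.25 (SE 0.082) and the limma adjusted p of 0.059 missed the threshold. It passed with DESeq2 (adjusted p = 0.047) and not with edgeR (adjusted p = 0.057), and without WT replicate 1 it was 0.15 (limma adjusted p = 0.16). None of the 10 regions passed in limma, edgeR or DESeq2, and 3 had an unadjusted p under 0.05, all higher. In limma 1 passed with the replicate block and 3 did without WT replicate 2. All 10 had a positive change, from 0.16 to 0.65, and 8 had both GrnKO values above both WT values. The best marked of them, in exon 2 at chr2:174437910-174438710, held 488 and 678 tags in WT and 706 and 795 in GrnKO (0.38, SE 0.14, limma adjusted p = 0.086), with a change of 0.14 when WT replicate 1 was left out (limma adjusted p = 0.39). The best marked distal one, in intron 2 at chr2:174436632-174437432, held 437 and 422 against 488 and 494 (0.19, SE 0.12, limma adjusted p = 0.36). Neither overlapped between genotypes, and the WT pools were wider apart in the first.

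Lgmn encodes legumain, an asparaginyl endopeptidase that cleaves other cathepsins to their mature chains. Its sum over 60 regions was nearly level between genotypes, at 9170.2 and 9407 tags in WT and 9451 and 9684 in GrnKO (log2 change 0.043, SE 0.059, limma adjusted p = 0.71). Within it, 6 of 59 tested regions were higher, which is 10.2% and near the 6.8% of all regions, and none was lower. Of the 6, 5 form 1 cluster in intron 2, between 20055 and 23348 bp from the start, with log2 changes from 1.08 to 1.32. The sixth, 73577 bp from the start, lies inside Rin3. Of the 60 regions the table gives to Lgmn, 20 are annotated to Rin3, and 19 overlap the span of that gene.

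In the Lgmn cluster the region chr12:102417474-102418274 held 54.0 and 39.5 tags in WT and 108 and 113 in GrnKO (1.24, SE 0.26, limma adjusted p = 0.0046). At chr12:102419358-102420158 values were 59.1 and 57.6 against 119.6 and 132 (1.10, SE 0.23, limma adjusted p = 0.0050). At chr12:102417818-102418618 they were 59.8 and 31.4 against 114 and 105 (1.32, SE 0.29, limma adjusted p = 0.0074). These are low values beside the best marked Lgmn region at chr12:102450201-102451001, -10788 bp from the start, which held 872 and 885 tags in WT and 784 and 805 in GrnKO (-0.15, SE 0.098, limma adjusted p = 0.40). That best marked region lies inside another gene, Gm30198. All 5 regions of the cluster passed without WT replicate 1, where 8 Lgmn regions were higher and 1 lower, while without GrnKO replicate 1 or without GrnKO replicate 2 none of the 59 Lgmn regions did. The promoter region chr12:102439932-102440732 overlapped between genotypes, at 299 and 404 tags in WT and 379 and 376 in GrnKO (0.12, SE 0.15, limma adjusted p = 0.70), and turned to -0.10 without WT replicate 1.

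**Figure D3:**
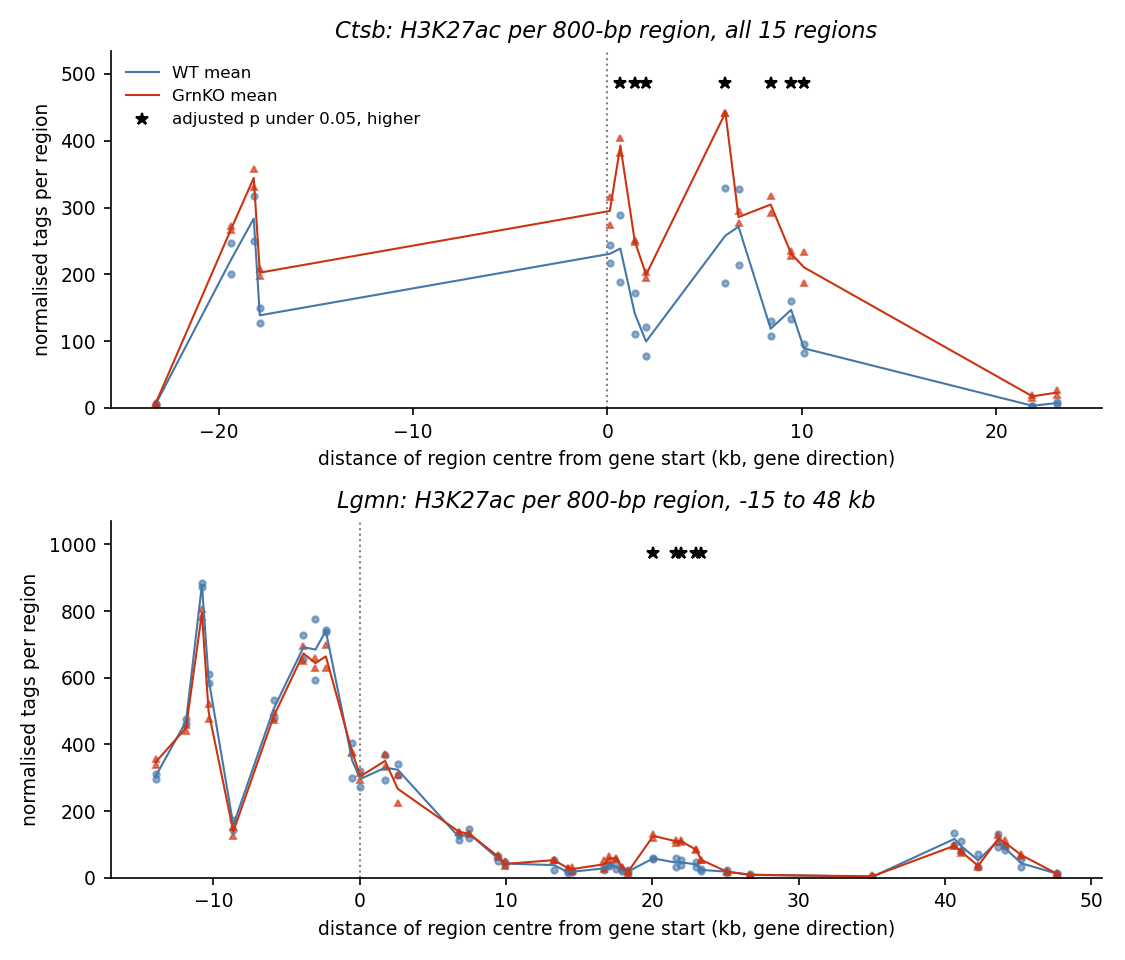
H3K27ac (normalised tags) against the distance of the region centre from the gene start in kb, for the 15 Ctsb regions and for the 40 of 60 Lgmn regions nearest the gene, with circles for WT libraries, triangles for GrnKO libraries, lines through group means (n = 2) and stars for regions higher at a limma adjusted p under 0.05. The 7 Ctsb stars run from the promoter to 10113 bp, and the 5 Lgmn stars sit between 20055 and 23348 bp.

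Ctsc encodes dipeptidyl peptidase 1, which activates serine proteases of immune granules. Of its 68 regions, 10 lie inside the gene Grm5. The Ctsc sum was 3915 and 3784 tags in WT and 3565 and 3293 in GrnKO (log2 change -0.17, SE 0.078, limma adjusted p = 0.19). Both GrnKO pools were below both WT pools after TMM, and with the authors' scaling alone the change was 0.059. Of 48 tested regions none was higher and 1 was lower, where 2.92% of all regions were. The calls moved with the setting: 2 were higher and none lower in the authors' scaling, 2 and 2 with the replicate block, 5 and 3 without WT replicate 1, 1 and 4 without WT replicate 2, and none either way without GrnKO replicate 1 or 2. The region is intergenic, at chr7:88225563-88226363, -52122 bp from the start, and held 241 and 238 tags in WT and 163 and 167 in GrnKO (-0.54, SE 0.16, limma adjusted p = 0.046). It did not pass under the authors' scaling (limma adjusted p = 0.57), nor without GrnKO replicate 1 or 2 (0.38 and 0.29). The best marked region, at the promoter (chr7:88277621-88278421), overlapped between genotypes, with 382 and 426 tags in WT and 417 and 373 in GrnKO (-0.033, SE 0.13, limma adjusted p = 0.92). The best marked distal Ctsc region, chr7:88251699-88252499 at -25986 bp, held 388 and 364 tags in WT and 323 and 344 in GrnKO (-0.17, SE 0.13, limma adjusted p = 0.48).

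Ctss encodes cathepsin S, which trims the invariant chain for antigen presentation. Its sum of 1912 and 1799 tags in WT and 1685 and 1576 in GrnKO gave a log2 change of -0.19 that did not pass (SE 0.093, limma adjusted p = 0.22). Under the authors' scaling alone the Ctss change was 0.040. All 6 tested regions had a negative change after TMM, between -0.28 and -0.099, and none passed in limma, edgeR or DESeq2 or reached an unadjusted limma p under 0.05. At the promoter, chr3:95526400-95527200, the WT pools held 376 and 356 tags, above the 328 and 315 of the GrnKO pools (-0.19, SE 0.14, limma adjusted p = 0.44). The best marked Ctss region, chr3:95523506-95524306 at -2880 bp, overlapped, with 534 and 439 tags in WT and 443 and 411 in GrnKO (-0.18, SE 0.13, limma adjusted p = 0.44), and its change was -0.041 once WT replicate 1 was left out. That region lies inside another gene, Gm40096.

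Ctsh encodes an aminopeptidase, and its sum was level, at 2441 and 2440.1 tags in WT and 2493 and 2465 in GrnKO (log2 change 0.022, SE 0.082, limma adjusted p = 0.90). Of its 25 regions, 6 lie inside the gene Rasgrf1. Of 20 tested Ctsh regions 1 was higher, a share below the 6.8% of all regions: chr9:90042672-90043472, at -11195 bp, with 4.69 and 16.0 tags in WT and 40.7 and 37.4 in GrnKO (2.03, SE 0.52, limma adjusted p = 0.018). Its change was 1.24 without WT replicate 1 (limma adjusted p = 0.022), and it did not pass without GrnKO replicate 1 or 2 (0.28 and 0.20). Without WT replicate 1 or 2, 2 Ctsh regions were higher and 1 was lower. It is weakly marked next to the promoter region chr9:90054488-90055288, which held 359 in each WT pool and 368 and 373 in GrnKO (0.045, SE 0.13, limma adjusted p = 0.88). In intron 1, at chr9:90059657-90060457, Ctsh values of 224 and 234 in WT met 281 and 269.7 in GrnKO without passing (0.27, SE 0.15, limma adjusted p = 0.30).

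Ctsl encodes cathepsin L, a broad endopeptidase. Its sum overlapped between genotypes, at 547 and 521 tags in WT and 634 and 545 in GrnKO (log2 change 0.14, SE 0.13, limma adjusted p = 0.56). That change was 0.030 without GrnKO replicate 1 and 0.25 without GrnKO replicate 2. None of 11 tested Ctsl regions passed in limma, edgeR or DESeq2, while 2 had an unadjusted p under 0.05, 1 in each direction. In limma 1 was lower with the replicate block, and 1 was higher and 1 lower without WT replicate 2. At its start, chr13:64369999-64370799 held 139.6 and 146 tags in WT and 202 and 156 in GrnKO (0.31, SE 0.19, limma adjusted p = 0.34). Its best marked distal region pointed the other way: chr13:64373526-64374326, at -3406 bp, held 113 and 85.9 tags in WT and 66.8 and 49.1 in GrnKO (-0.77, SE 0.26, limma adjusted p = 0.071). Neither overlapped between genotypes.

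Ctsk encodes cathepsin K, the collagen-degrading protease of osteoclasts. It was the least marked, with no listed region at its start and a sum of 31.7 and 26.2 tags in WT and 54.0 and 35.5 in GrnKO (log2 change 0.59, SE 0.38, limma adjusted p = 0.36). The change of the Ctsk sum was 0.29 without GrnKO replicate 1 and 0.88 without GrnKO replicate 2. Its best marked region, in the last exon at chr3:95508638-95509438, held 17.2 and 22.8 tags in WT and 33.1 and 23.5 in GrnKO (0.47, SE 0.42, limma adjusted p = 0.54). Without WT replicate 1 that change was 0.28 (limma adjusted p = 0.71). Of its 2 tested regions none passed in edgeR or in limma as fitted here, where 1 had an unadjusted p under 0.05. In DESeq2 1 passed, as 1 did in limma with a pseudocount of 5, in the authors' scaling, with the replicate block and without WT replicate 1 or 2.

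**Figure D4:**
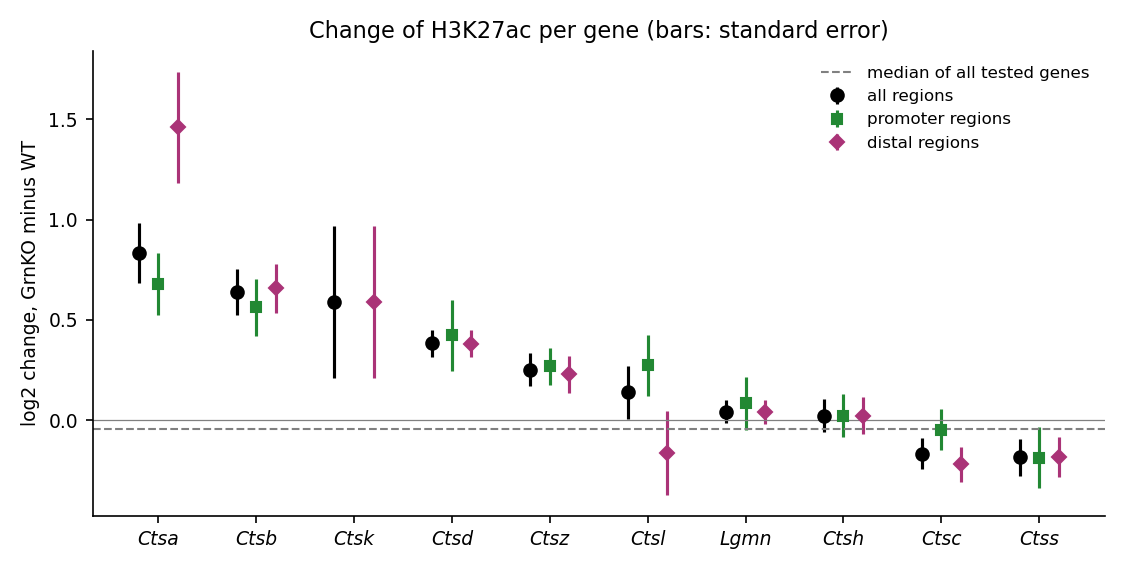
Log2 change of H3K27ac (GrnKO minus WT, n = 2 each) per gene, for all regions, promoter regions and distal regions, with bars for the standard error and a dashed line at the median of all tested genes (-0.046). All-region changes run from 0.84 at Ctsa to -0.19 at Ctss. Ctsa, Ctsb, Ctsd, Ctsz, Lgmn and Ctsh lie above the line in each measure, and Ctsk has no promoter region.

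Over the family as a whole, 200 of 232 regions passed the filter on low tags. Of these 29 were higher and 1 was lower, beside 6.8% and 2.92% of all tested regions (9.72% in either direction), and 170 did not pass. Neighbouring regions overlap and are not independent, and among the 141 tested regions that do not overlap, 18 were higher. Both GrnKO values exceeded both WT values at 85 of 200 (27% of all regions) and lay below at 29 (25.6%). Without WT replicate 1, 39 were higher and 5 lower, beside 10.6% and 5.43% of all regions. Without GrnKO replicate 1 or 2, 6 or 7 were higher, beside 1.41% and 1.81% of all regions, a fall in calls that the family shared with all regions. The median log2 change of the 200 was 0.17, against -0.0020 for all regions.

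**Figure D5:**
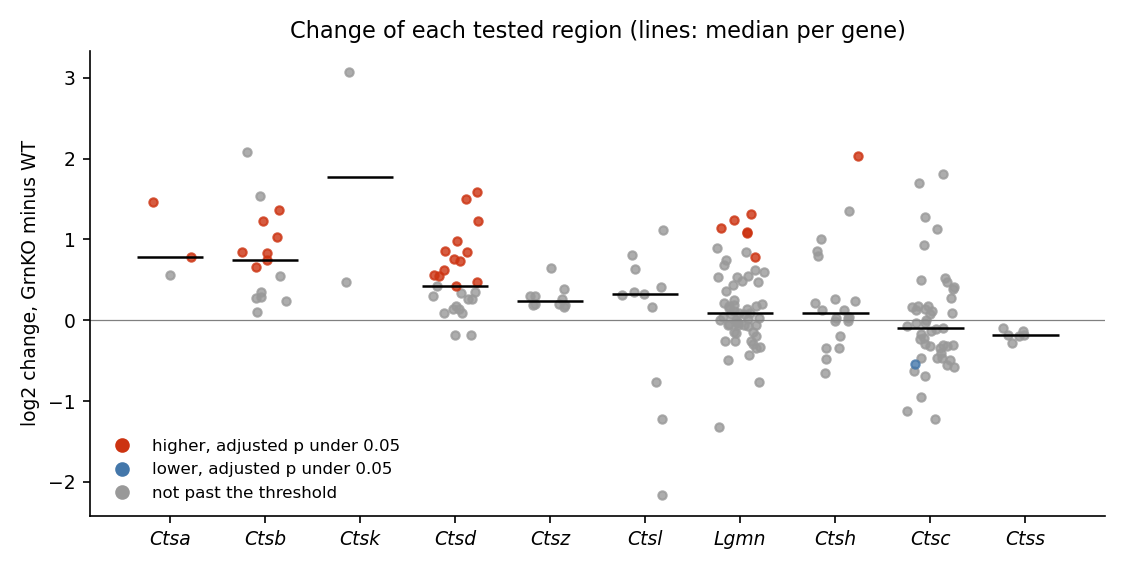
Log2 change (GrnKO minus WT) of each of the 200 tested regions by gene, with red points higher and the blue point lower at a limma adjusted p under 0.05, and lines at each gene's median. Of the 29 red points 13 belong to Ctsd, 7 to Ctsb, 6 to Lgmn, 2 to Ctsa and 1 to Ctsh.

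The split into gene body and upstream regions was made after the values had been seen, while the distal against promoter test was planned. Of tested family regions in gene bodies 23 of 82 were higher, where 7.42% were over all genes. Those 23 came from Ctsd (11), Ctsb (6), Lgmn (5) and Ctsa (1), and became 6 without GrnKO replicate 1 and 7 without GrnKO replicate 2. At promoters 2 of 22 were higher (3.57% over all genes), and upstream in sequence annotated as intergenic 3 of 61 were higher and 1 lower (8.79% and 4.1%). With the replicate block 5 promoter regions were higher, and upstream 7 were higher and 3 lower. The promoter and upstream counts also rose or fell with the library left out. A direct test of gene body against upstream change, over the 2529 genes with both, passed for no gene after limma's adjusted p, with 447 of them, and none of the 8 members tested, at an unadjusted p under 0.05. The log2 difference was 0.54 at Ctsd (SE 0.21, limma adjusted p = 0.31), 0.46 at Ctsb (SE 0.24, limma adjusted p = 0.39) and 0.33 at Lgmn (SE 0.22, limma adjusted p = 0.48). A test of distal against promoter change passed for 0.0273% of 7324 genes and for none of the 9 members with both, of which 0 had an unadjusted p under 0.05, the difference at Ctsa being 0.78 (SE 0.31, limma adjusted p = 0.41). Different change in body, distal and promoter regions was thus not shown for any of these genes.

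Other genes of lysosomal proteolysis were followed from a list of 26, of which 22 were tested. Their gene sums were higher at 4 and lower at 2, beside 8.6% and 5.88% of all gene sums, and their median log2 change was 0.14, beside -0.046 over all genes. Among 3 tested cathepsin inhibitors, Cstb, the gene of stefin B, went from 161 and 224 tags in WT to 444 and 428 in GrnKO (1.19, SE 0.18, limma adjusted p = 0.00069). Cst7, the gene of cystatin F, went from 185 and 311 to 368 and 403 (0.68, SE 0.21, limma adjusted p = 0.047). Its lowest value was that of WT replicate 1, and the adjusted p lay close to the threshold. Cst3, the gene of the secreted inhibitor cystatin C, moved the other way, from 3809 and 4661 to 2957 and 3042 (-0.49, SE 0.094, limma adjusted p = 0.0033).

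Of the other cathepsins on the list Ctse, an aspartic protease like Ctsd, was higher (114 and 69.9 tags against 222 and 138, log2 change 0.97, SE 0.28, limma adjusted p = 0.037), while Ctsf and Ctso did not pass. Gnptab, a subunit of the enzyme that tags lysosomal proteins with mannose 6-phosphate, was higher, at 838 and 641 against 438 and 316 tags (0.98, SE 0.17, limma adjusted p = 0.0020). None of the 5 other tested sorting genes passed, nor did any of the 5 tested lysosomal peptidases. Cd74, the invariant chain that Ctss trims, was lower (592 and 402 tags in WT, 237 and 291 in GrnKO, log2 change -0.89, SE 0.19, limma adjusted p = 0.0063), alone among 5 partners and substrates tested.

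The genes whose sums followed that of Ctsd most closely over the 4 libraries were Il15, Hmgxb3 and Nek6, at Euclidean distances of 0.021, 0.030 and 0.035 between centred log2 sums, among 15370 genes. Nek6 went from 5954 and 6532 tags in WT to 8144 and 8343 in GrnKO. With 4 libraries many profiles resemble one another, and the distances are a description.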

How the data were processed

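H3K27ac and input libraries were read from 1 table of 129304 regions. The deposited unit is a signal: the authors scaled tags per region to 10000000 per library, per the file headers, which also describe the regions as merged reproducible ATAC-seq peaks. The submitters' processing notes name Bowtie2, HOMER, DESeq2 and mm10, without roles. All values gave whole read ends, at 2 ends per tag, when multiplied by the library totals, within the rounding of the deposited values to 2 decimals. Depth was thus known. Intervals and tests cover the 2 pools per genotype, and reads carry no molecular identifiers here.

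Region and gene-sum values were scaled by TMM factors (0.825 and 1.04 in WT, 1.08 and 1.08 in GrnKO) from regions kept by filterByExpr (minimum 10 tags), and log2(value + 1) was fitted with limma 3.58.1 in R 4.3.3 on the 4 H3K27ac libraries, with genotype as the only term (eBayes with trend, two-sided, Benjamini-Hochberg over all features, threshold 0.05). Log2 changes of low values are understated. Alternatives were edgeR 4.0.16 quasi-likelihood and DESeq2 1.42.0 on recovered reads, the authors' scaling, a pseudocount of 5, no filter (regions without any tag dropped), a replicate block, and each library left out. Tests were checked on simulated data. The members and gene lists were chosen with earlier results of these data known. The text names each member, its best marked promoter and distal region, up to 3 regions past the threshold per direction by p, genes of the list of other lysosomal proteolysis genes past the threshold (up to 4 per direction), and the 3 genes nearest Ctsd. Other features, and the gene body comparison, were chosen after their values were seen.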

Additional observations from a re-analysis of the deposited data

How the results depend on the processing

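The count of family regions higher in GrnKO was 29. It ranged from 6 to 49 with one library left out and was 13 with a change of at least 2-fold required. The count lower, 1, was 0 in the authors' scaling, without a filter and at 2-fold, 2 with a pseudocount of 5, and 0 to 6 with one library left out. Same-numbered pools are different mice (correlation of their deviations 0.034). With the replicate block 38 family regions were higher and 3 lower, and 4 gene sums were higher, the fourth being Ctsz (limma adjusted p = 0.013). The 3 gene sums that passed, Ctsa, Ctsb and Ctsd, also passed with edgeR and DESeq2, and with each library left out, where the other genotype's pair alone gives the spread. Ctsd did not in the authors' scaling (limma adjusted p = 0.23) or over its promoter region alone (0.21). Ctsz passed also with DESeq2 (0.047), without WT replicate 2 (limma adjusted p = 8.04e-05, with the spread of the GrnKO pair, 4308 and 4289 tags), and with 2 scalings added after seeing the data, by tags in listed regions (0.035) and by TMM on gene sums (0.047). With a pseudocount of 5 the median ratio to input was 9.90 in WT and 16.2 in GrnKO.

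Of the alternatives for single genes, regions and differences, 25 lost a call, and 11 planned and 2 added ones gained one. Signs turned only at values that did not pass. In the authors' scaling Ctsc was 0.059, Ctss 0.040, the Ctsc regions at 88251699 and 88277621 were 0.053 and 0.19, the Ctss regions at 95523506 and 95526400 were 0.044 and 0.039, and the Lgmn region at 102450201 was 0.081. Ctsh was -0.025 over non-overlapping regions and Ctsl -0.16 over distal regions. Distal minus promoter turned with promoters of 2000 bp at Ctsb (-0.088) and Ctsh (0.039), and with a pseudocount of 5 at Ctss (-0.00094). With one library left out, distal minus promoter ranged at Ctsd from -0.16 to 0.082, at Ctsh from -0.025 to 0.025, at Ctss from -0.023 to 0.025, at Ctsz from -0.15 to 0.071 and at Lgmn from -0.21 to 0.12. Gene body minus upstream ranged at Ctsc from -0.35 to 0.25, at Ctsl from -0.40 to 0.86 and at Ctss from -0.39 to 0.080. The Ctsc region at 88277621 ranged from -0.11 to 0.048 and the Lgmn region at 102439932 from -0.10 to 0.34. The cause was not tested.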
